A study of Mus musculus with 48 samples.

Results

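The nuclear-encoded subunits of the mitochondrial respiratory chain and of ATP synthase were examined in the mouse amygdala. They were the protein-coding genes whose symbols start with Ndufa, Ndufb, Ndufc, Ndufs or Ndufv and a digit, with Uqcr, with Cox4 to Cox8 or with Atp5, together with Ndufab1, Sdha to Sdhd and Cyc1, and without the assembly factors named Ndufaf. The rule held 86 of the 52636 genes measured, with 38 in complex I, 4 in complex II, 9 in complex III, 18 in complex IV and 17 in complex V. It used symbols and no measured value. A second annotated gene ID for Atp5o has a symbol that fits the rule but was not among the genes measured.

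The respiratory chain passes electrons from NADH and succinate to oxygen through complexes I to IV, pumps protons across the inner mitochondrial membrane, and so drives ATP synthase, complex V. Most subunits are encoded in the nucleus and imported, while a small set that includes the catalytic centre of complex IV is encoded in mitochondrial DNA and transcribed inside the organelle. Neurons draw most of their ATP from this pathway, and several complex IV subunits have a widely expressed form and another form known from muscle, testis or lung.

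The libraries were made from punches of the amygdala of 48 female mice, 8 in each of 6 groups. WT mice and mice with 1 intact copy of Brd1 (Brd1+/-), 8 to 11 weeks old and both labelled with the strain C57BL/6NTac-Brd1, had received saline as vehicle, the tricyclic antidepressant imipramine (IMN, 10 mg/kg) or the serotonin reuptake inhibitor fluoxetine (FLX, 5 mg/kg). All mice had been through behavioral tests that ended with forced swimming about an hour before the brains were taken, and the Brd1+/- mice came from a single line with a targeted deletion that is present in all cells. The Brd1 protein binds chromatin through a bromodomain and belongs to a complex that acetylates histones. Its reduced dosage was compared with and without the drugs to learn how gene expression in the brain responds to each.

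Levels were in TPM, a share of each library's transcripts corrected for gene length, so the sequencing depth behind a value is unknown. Brd1 checked the genotype labels. Its mean was 35.6 TPM ± 5.09 (SD, n = 8) in WT and 26.0 ± 2.90 in Brd1+/- vehicle mice, 36.9 ± 2.83 and 23.4 ± 4.84 in IMN mice, and 32.9 ± 4.45 and 23.5 ± 3.49 in FLX mice (two-sided exact permutation p = 0.00109, 0.000155 and 0.000777, the second being the smallest that 12870 arrangements allow). The 6 amygdala markers listed summed to between 54.4 and 669 TPM in a library. Markers of striatal projection neurons summed to over 2000 TPM in 12 libraries, 2 of WT vehicle, 3 of Brd1+/- vehicle, 2 of WT IMN, 3 of Brd1+/- IMN, none of WT FLX and 2 of Brd1+/- FLX mice. Markers of the choroid plexus, the secretory epithelium of the ventricles, summed to over 1000 TPM in 9 libraries, 1 in each WT group and 2 in each Brd1+/- group. In such bulk samples fewer cells of a type and less RNA per cell cannot be told apart.

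The subunit genes were among the most abundant of the amygdala. A mean of at least 100 TPM over the 48 libraries was seen for 67 of the 86 and of at least 10 TPM for 78, and 81 were above 0 in every library. The 78 spanned 27.7 to 1183 TPM with a median of 179 TPM. Complex V held the widest range, with Atp5b, the catalytic beta subunit of ATP synthase, at 1183 TPM and Atp5a1, the alpha subunit, at 623 TPM. Its low end was Atp5s alone at 27.7 TPM, and the next lowest was Atp5g2 at 95.3 TPM. In complex IV, Cox8a averaged 822 TPM and Cox4i1 767 TPM. Both are small nuclear subunits around a core that mitochondrial DNA encodes. The highest of complex I were Ndufb9, an accessory subunit of its membrane arm, at 390 TPM, and Ndufa4 at 357.4 TPM, which is counted here by its symbol although its protein is found with complex IV. Complex II was led by its flavoprotein Sdha at 335 TPM and the iron-sulfur protein Sdhb at 184 TPM. Complex III was the most even, its 9 genes between 131 and 303 TPM, with Uqcrh, the hinge protein, and Uqcr10 the highest at 303 and 274 TPM.

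**Figure D1:**
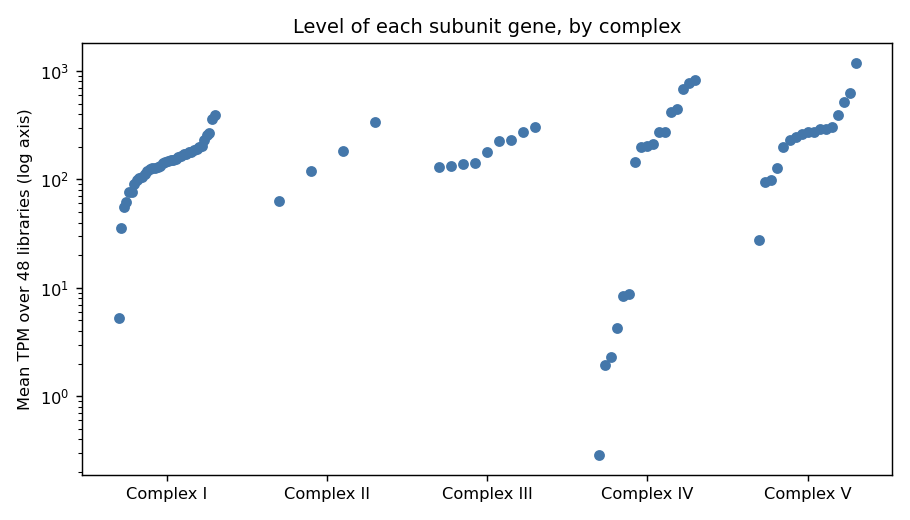
Mean TPM over the 48 libraries (log axis) of each subunit gene, 1 point per gene, ordered by level within each of the 5 complexes. The points of complexes II, III and V lie above 10 TPM, as do those of complex I except Ndufa4l2 at 5.23 TPM. Complex IV holds the other forms below 10 TPM. Cox8c, listed at 0 in all 48 libraries, is not drawn.

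How much a subunit varied between libraries of the same group also differed. For the 78 genes with a mean of at least 10 TPM the SD within groups on the log2 scale had a median of 0.16. It was lowest for Ndufs8 and Ndufa9, both at 0.09. It was highest for Atp5g1, a gene for the membrane ring of ATP synthase, at 0.56, and for Uqcrq, a small subunit of complex III, at 0.43. Atp5g1 ran from 58.4 to 162 TPM (median 77.7) within WT vehicle mice alone, and from 52.1 to 186 TPM over all libraries. Some levels are uncertain because 12 processed pseudogenes and 1 other non-coding gene of like name are counted beside the members. Cox6c2 averaged 190 TPM beside 448 TPM of Cox6c, and Ndufb4c averaged 75.6 TPM beside 56.2 TPM of Ndufb4, so that reads of these pairs may have been split.

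The second forms of complex IV subunits were low. Cox6a2, the muscle form of subunit 6a, averaged 8.44 TPM against 683 TPM of Cox6a1. Cox6b2, known from testis, averaged 8.74 TPM against 421 TPM of Cox6b1. Cox7a1, the muscle form of 7a, averaged 4.23 TPM against 275 TPM of Cox7a2, Cox4i2, known from lung, 1.95 TPM against 767 TPM of Cox4i1, and Cox8b, the form of heart and skeletal muscle, 2.30 TPM against 822 TPM of Cox8a. Cox7b2 averaged 0.287 TPM and was listed at 0 in 35 of 48 libraries. Ndufa4l2, a relative of Ndufa4 induced in hypoxia, averaged 5.23 TPM. The filter on low values (at least 0.1 TPM in at least 8 libraries of a comparison) passed 83 of the 86 genes in each of the 9 pairwise comparisons. Cox8b and Cox8c were not tested in any comparison, and Cox7b2 only in the 2 interactions.

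Cox8b and Cox6b2 were high in a few libraries only. Cox8b was listed at 0 in 37 of 48 libraries. It was above 6 TPM in 6 libraries, the same 6 that had the highest sums of the choroid plexus markers. In these 6, with marker sums of 3327 to 29586 TPM, Cox8b lay between 6.27 and 32.3 TPM. In the other 42, with marker sums of 7.58 to 1756 TPM, it reached at most 1.87 TPM. The highest values were 32.3 TPM in Brd1+/- FLX replicate 8 and 31.5 TPM in WT vehicle replicate 1, followed by WT FLX replicate 2 at 14.9 TPM and Brd1+/- vehicle replicate 3 at 12.1 TPM. Cox6b2 was 14.4 to 53.9 TPM (median 27.2) in the same 6 libraries and 1.13 to 16.3 TPM (median 4.96) in the other 42, with a small overlap. Cox8a, the widely expressed partner of Cox8b, was 656 to 869 TPM in the 6 and 672 to 984 TPM in the 42. These 6 libraries came from 5 groups, 2 of them from Brd1+/- IMN and 1 from each of the others. Cox6b2 also reached 16.3 and 14.4 TPM in Brd1+/- vehicle replicates 7 and 6, where the choroid plexus markers summed to 193 and 41.5 TPM. It was 15.5 TPM in WT IMN replicate 3, where these markers summed to 7.58 TPM, the lowest of the 48 libraries. These genes were singled out after their values had been seen, and no test was made.

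**Figure D2:**
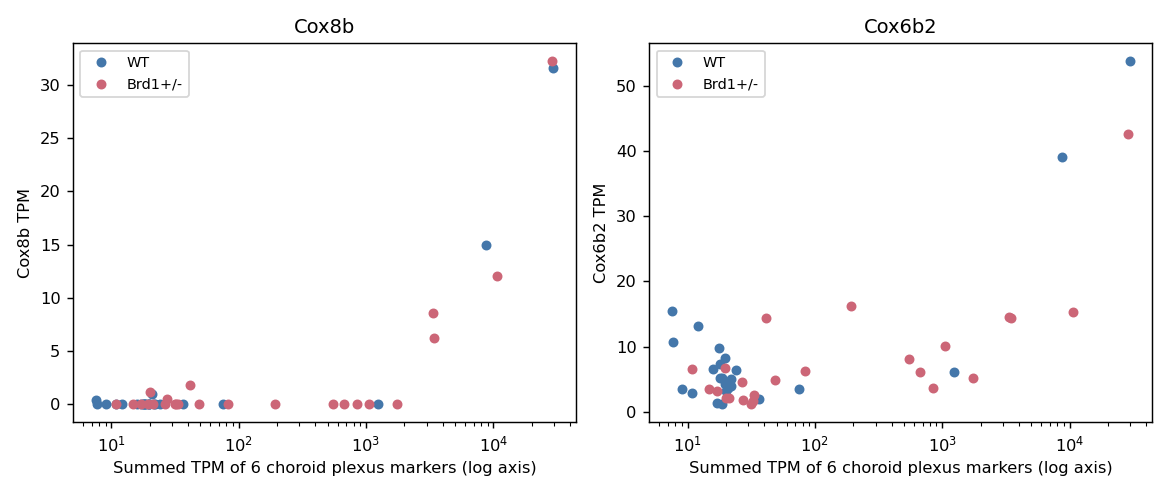
TPM of Cox8b (left) and Cox6b2 (right) against the summed TPM of 6 choroid plexus markers (log axis), 1 point per library, blue for WT and red for Brd1+/-. The 6 libraries with marker sums of 3327 TPM and more hold all Cox8b values above 1.87 TPM and all Cox6b2 values above 16.3 TPM. Their lower Cox6b2 values overlap those of the other libraries.

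Summed over their genes, complexes I, II, III and V had their highest group mean in WT mice given FLX. These sums are descriptions without a test. Complex I summed to 5618 TPM ± 281 (SD, n = 8) in WT vehicle, 5720 ± 380.7 in Brd1+/- vehicle, 5910 ± 378 in WT IMN, 5751 ± 326 in Brd1+/- IMN, 6080 ± 296 in WT FLX and 5631 ± 227 in Brd1+/- FLX mice. Complex II had means of 668, 691, 708, 693, 776 and 672 TPM in the same order of groups. Complex III had means of 1707, 1731, 1737, 1720, 1894 and 1748 TPM. For these complexes the WT FLX and Brd1+/- FLX libraries overlapped, as in complex II, where they ran from 694 to 856 TPM and from 594 to 707 TPM. Complex IV also had its highest mean there, but by less than the spread within groups, with 4586 TPM ± 279 in WT FLX and 4545 ± 330 in Brd1+/- FLX mice. Complex V had means of 5169 TPM in WT vehicle, 5811 TPM in WT FLX and 5410 TPM in Brd1+/- FLX mice. Of the 78 genes with a mean of at least 10 TPM, 47 had their highest group mean in WT FLX, 11 in WT IMN, 9 in Brd1+/- FLX, 6 in Brd1+/- IMN, 3 in WT vehicle and 2 in Brd1+/- vehicle mice.

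**Figure D3:**
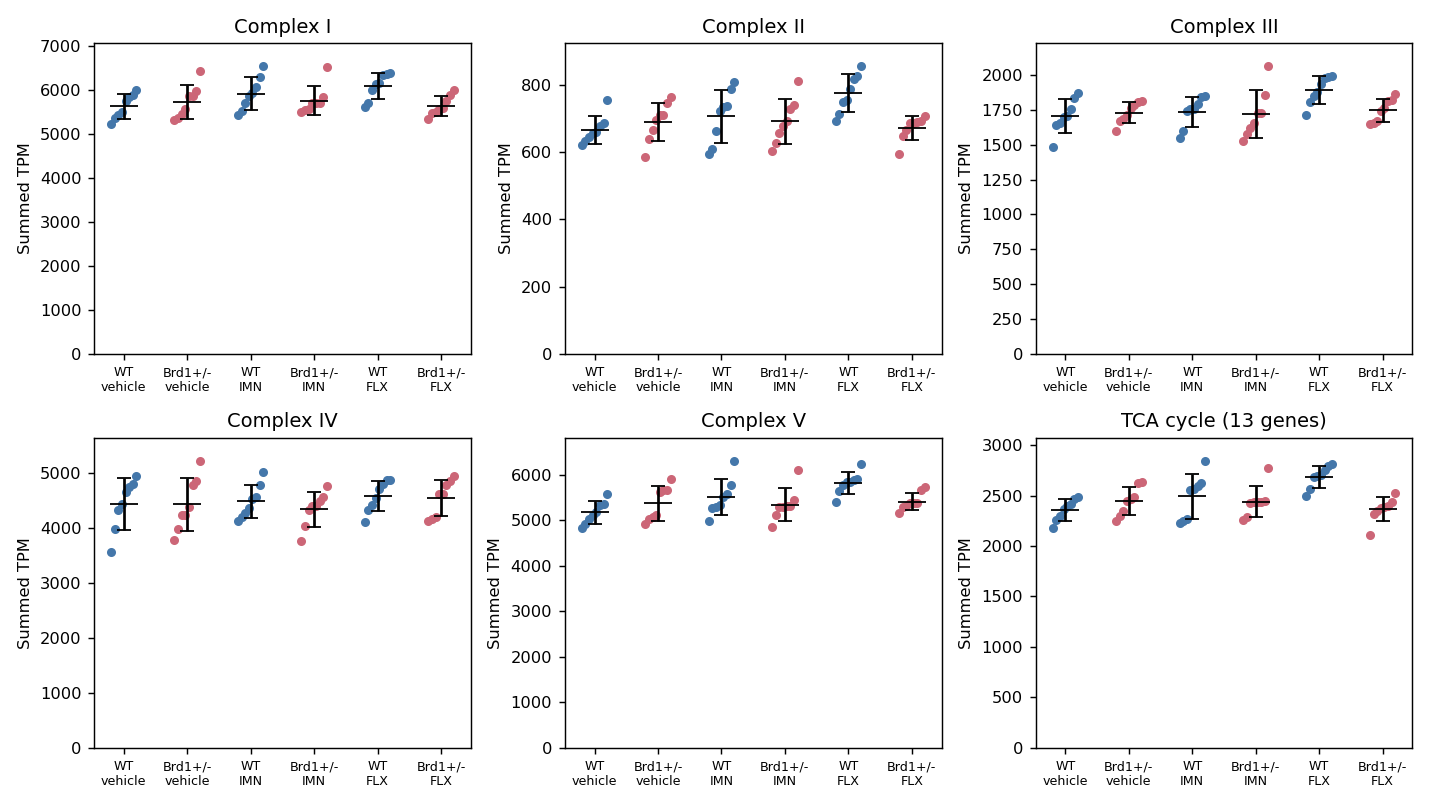
Summed TPM of the genes of each complex, and of 13 genes of the TCA cycle, in the 6 groups (points are libraries, 8 a group; the bar and whiskers give mean and SD; axes start at 0). Complexes I, II, III and V are highest in the WT FLX group, at 6080, 776, 1894 and 5811 TPM, while complex IV lies within its spread in all groups.

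The comparison of genotypes in vehicle mice asked what reduced Brd1 dosage alone does. No subunit gene passed the test there (0 of 83, limma with Benjamini-Hochberg adjustment over all genes, adjusted p under 0.05), where 0.708% of all genes tested passed, and 1 of 83 was higher at an unadjusted p under 0.05 beside 6.9% of all genes. That gene was Atp5mpl, a small membrane subunit of ATP synthase. It ran from 184 to 257 TPM (median 222) in WT and from 247 to 318 TPM (median 286) in Brd1+/- vehicle mice. The Brd1+/- libraries were mostly above the WT libraries with a narrow overlap, and the difference was 0.36 ± 0.08 on the log2 scale (SE, 95% interval 0.18 to 0.54, limma adjusted p = 0.0624). It passed without WT vehicle replicate 1, which carried high choroid plexus and striatal markers. Of the 15274 protein-coding genes tested, 11 were called higher and 2 lower, and 787 were higher at an unadjusted p under 0.05. Above 0 lay 63 of the 83 subunit genes. Their median difference was 0.04, beside 0.03 over all 24279 genes and 0.01 over the protein-coding genes. With the marker scores of 3 cell types as covariates, those of striatal neurons, oligodendrocytes and choroid plexus, 27 lay above 0, so that the direction of this small median depended on them. The 6 oligodendrocyte markers were all higher in Brd1+/- vehicle mice at an unadjusted p under 0.05 (median 1.51), with summed levels of 642 to 10381 TPM in WT (median 1830) and 2195 to 15522 TPM in Brd1+/- mice (median 5251), and 3 of 6 astrocyte markers were higher at that p (median 0.34). Farthest from 0 among the rest lay 0.88 ± 0.75 for Cox4i2 and 0.58 ± 0.58 for Cox6b2 above 0 and -0.19 ± 0.12 for Atp5d and -0.15 ± 0.09 for Ndufb6 below it.

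In IMN mice no subunit gene passed the genotype test either (0 of 83), where 0.017% of all genes did, and 2 were lower in Brd1+/- mice at an unadjusted p under 0.05, beside 1.6% of all genes. They were Ndufa4l2, with means of 6.4 TPM in WT and 3.9 TPM in Brd1+/- mice and a difference of -0.71 (95% interval -1.25 to -0.17), and Ndufs6, a zinc-binding subunit of complex I, at -0.17. The median over the 83 genes was -0.04, beside 0.01 over all genes. Ndufs4 (0.21 ± 0.17) and Uqcrh (0.11 ± 0.15) lay highest and Cox7a1 (-1.09 ± 1.40) lowest.

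In FLX mice 3 subunit genes were lower in Brd1+/- than in WT mice and none was higher, where 1.38% of all genes tested were called lower. They were Ndufb8, an accessory subunit of the membrane arm of complex I (ENSMUSG00000025204, chr19:44548572-44555440, minus strand, GRCm38), Ndufs1, the large iron-sulfur subunit that takes electrons from the NADH site (ENSMUSG00000025968, chr1:63143596-63176833, minus strand), and Uqcrc1, a core protein of complex III (ENSMUSG00000025651, chr9:108936633-108949623, plus strand). Ndufb8 ran from 265 to 346 TPM (median 299) in WT FLX and from 173 to 259 TPM (median 233) in Brd1+/- FLX mice. All 8 Brd1+/- libraries lay below all 8 WT libraries, and the difference was -0.41 ± 0.08 (SE, 95% interval -0.58 to -0.24, limma adjusted p = 0.0251). Ndufs1 ran from 148 to 191 TPM (median 160) in WT and from 123.6 to 151 TPM (median 135.7) in Brd1+/- mice. These ranges overlapped at their edges, and the difference was -0.27 ± 0.06 (95% interval -0.40 to -0.14, limma adjusted p = 0.0401). Uqcrc1 ran from 130 to 154.6 TPM (median 147) in WT and from 114 to 132.8 TPM (median 125.8) in Brd1+/- mice, with a difference of -0.24 ± 0.05 (95% interval -0.35 to -0.12, limma adjusted p = 0.0395).

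**Figure D4:**
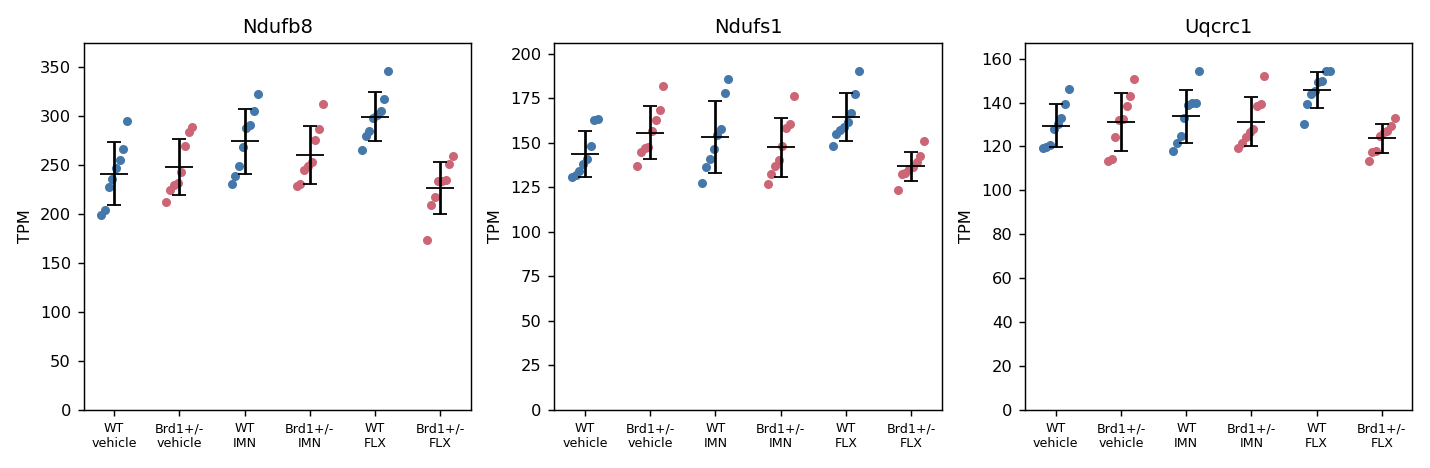
TPM of Ndufb8, Ndufs1 and Uqcrc1 in the 6 groups (points are libraries, 8 a group; the bar and whiskers give mean and SD; axes start at 0). In FLX mice the Brd1+/- libraries of Ndufb8, 173 to 259 TPM, lie below the WT libraries, 265 to 346 TPM, whereas the vehicle and IMN groups overlap widely.

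These calls were close to the threshold. None of the 3 passed without WT FLX replicate 1, 2, 3 or 7, with median-ratio scaling, with the code range as a covariate, with the 3 marker scores as covariates or without the choroid-rich libraries, and Ndufb8 was the only one that passed without WT FLX replicate 5, without Brd1+/- FLX replicate 2, 3, 5, 7 or 8, or without the striatal-rich libraries. Without WT FLX replicate 8, 5 genes passed. Their differences moved less, between -0.44 and -0.32 for Ndufb8, -0.29 and -0.19 for Ndufs1 and -0.26 and -0.17 for Uqcrc1. Within the lower and the higher range of the numeric sample codes, which the labels give without a meaning, Ndufb8 differed by -0.31 (3 WT and 5 Brd1+/- libraries) and -0.49 (5 and 3), Ndufs1 by -0.23 and -0.30 and Uqcrc1 by -0.20 and -0.27. In the higher range all WT codes lay above all Brd1+/- codes, so genotype and code cannot be told apart there. The codes of the genotypes were mixed only in the lower range, which had the smaller differences.

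Beyond the calls, 25 of the 83 genes were lower at an unadjusted p under 0.05, where 11.3% of all genes were, and 1 was higher, where 5.28% were. Of the 15190 protein-coding genes tested, 291 were called lower and 2216 were lower at that p, with a median of -0.07. Of the 83 subunit genes 68 lay below 0 and 15 above it, and the median was -0.12 beside -0.06 over all 23635 genes. With median-ratio scaling 53 lay below 0 and 30 above it, 9 were lower and 3 higher at that p (10.8% and 3.61%, beside 8.35% and 8.45% of all genes), and the medians were -0.05 for the subunits and 0.01 for all genes. With quantile normalization 15 were lower at that p, beside 8.97% of all genes, and with the marker scores as covariates 21 were, beside 8.98%. Complex II lay at a median of -0.17 with 4 of 4 below 0, complex III at -0.16 with 8 of 9, complex I at -0.11 with 35 of 38, complex V at -0.08 with 12 of 17 and complex IV at -0.05 with 9 of 15. The 25 included Sdha (-0.27 ± 0.08), Cyc1, the cytochrome that hands electrons to cytochrome c (-0.19 ± 0.06), Uqcrfs1, the Rieske iron-sulfur protein (-0.22 ± 0.06), Atp5a1 (-0.22 ± 0.06) and Atp5b (-0.16 ± 0.06), with limma adjusted p of 0.0835, 0.112, 0.0919, 0.0829 and 0.202. Cyc1 was the second gene without overlap, with 242 to 265 TPM in WT and 184 to 239 TPM in Brd1+/- mice, so that 2 of 83 had ranges apart, where 0.368% of all genes did. The gene that went the other way was Cox6a2, at 2.88 to 8.1 TPM (median 4.8) in WT and 4.7 to 11.2 TPM (median 8.7) in Brd1+/- mice (0.72 ± 0.24, limma adjusted p = 0.127).

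Markers of other cells moved as well. Between genotypes in FLX mice all 6 markers of mature oligodendrocytes, the myelin-forming cells, lay below 0 (median -0.56, 0 at an unadjusted p under 0.05), and their summed level had medians of 5444 TPM in WT (1839 to 7968) and 2706 TPM in Brd1+/- mice (853 to 16268). The means of this sum went the other way, with 5251 TPM in WT and 5810 TPM in Brd1+/- mice. Of 8 neuron markers 6 lay below 0 (median -0.21), and 3 were lower at an unadjusted p under 0.05, beside 11.3% of all genes. Their mean sums were 4182 TPM ± 292 in WT and 3668 ± 751 in Brd1+/- mice. Of these markers 1, Tubb3, the neuronal beta-tubulin, was called lower (-0.51 ± 0.11, limma adjusted p = 0.0328). All 7 striatal markers lay above 0 (median 0.72, 0 at an unadjusted p under 0.05). Of 6 amygdala markers 4 lay above 0 (median 0.93, 1 higher at that p), with mean sums of 263 TPM ± 91.2 in WT and 409 ± 159 in Brd1+/- mice. All 5 choroid plexus markers tested lay above 0 (median 0.83) and all 6 endothelial markers below it (median -0.25), 0 of either at that p. With the 3 marker scores as covariates the median over the 83 subunit genes was -0.11, beside -0.03 over all genes, and 0 of all genes tested were called. The part of these cells in the subunit differences was not tested further.

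**Figure D5:**
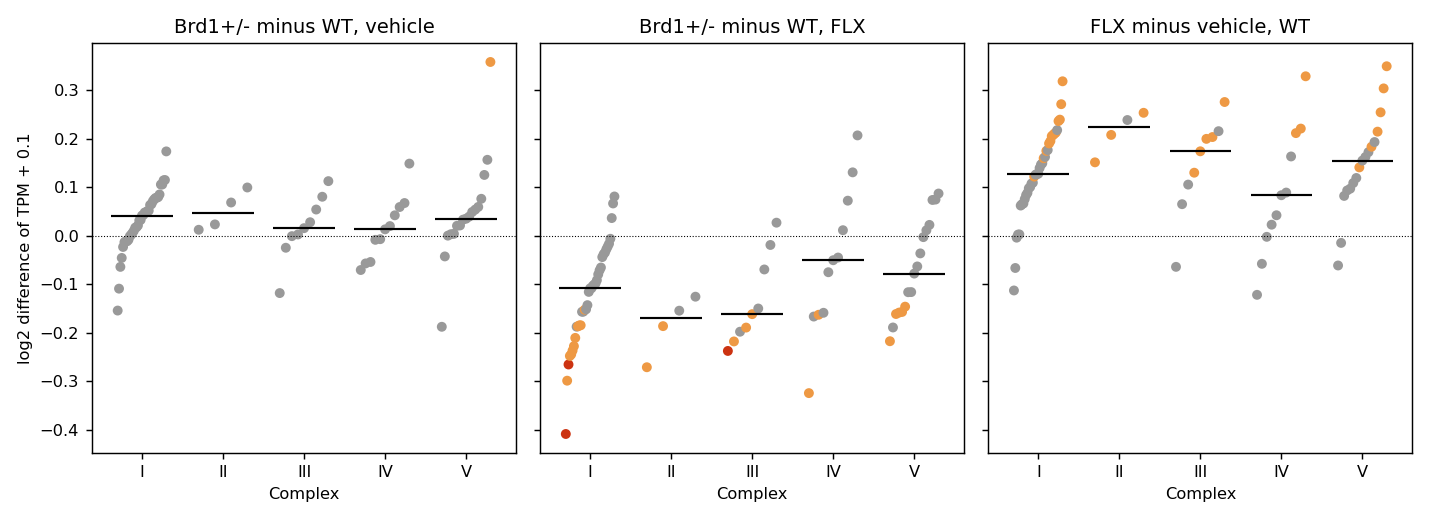
Difference on the log2(TPM + 0.1) scale of each of the 78 genes with a mean of at least 10 TPM, by complex, for Brd1+/- minus WT in vehicle mice, Brd1+/- minus WT in FLX mice and FLX minus vehicle in WT mice (red, limma adjusted p under 0.05; orange, unadjusted p under 0.05; grey, other; horizontal lines, medians). Points spread around 0 in vehicle mice, lie mostly below 0 between genotypes in FLX mice and mostly above 0 between FLX and vehicle in WT mice; the last 2 panels share the WT FLX libraries.

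The comparison of FLX with vehicle in WT mice shares its 8 FLX libraries with the genotype comparison just described, so the 2 are not independent. Every vehicle library also had a lower sample code than every IMN and FLX library. Drug and code therefore cannot be told apart in any comparison of a drug with vehicle, the interactions included. The code range was split within the vehicle and within the drug libraries, so it does not adjust for this. No subunit gene passed (0 of 83, where 0.335% of all genes did), while 30 were higher at an unadjusted p under 0.05, where 10.5% of all genes were, and 1 was lower, where 6.25% were. Above 0 lay 72 and below 0 lay 11, with a median of 0.15 beside 0.05 over all genes. With median-ratio scaling 68 lay above 0 and 11 were higher at that p (13.3%, beside 8.18% of all genes), and with the marker scores as covariates 65 lay above 0 and 5 were higher (6.02%, beside 2.87%). Atp5g3, the most abundant gene for the membrane ring of ATP synthase, was the only one with ranges apart (1 of 83, where 0.153% of all genes did). It ran from 461 to 513 TPM (median 487) in vehicle and from 524 to 665 TPM (median 579) in FLX mice, a difference of 0.25 ± 0.06 (95% interval 0.13 to 0.38, limma adjusted p = 0.062). Ndufb8 differed by 0.32 ± 0.08, Atp5mpl by 0.35 ± 0.09, Atp5j2, another membrane subunit of ATP synthase, by 0.30 ± 0.08 and Atp5b by 0.22 ± 0.06. Cox6a2 was the gene with the lower level, with 5.7 to 11.5 TPM (median 9.6) in vehicle and 2.88 to 8.1 TPM (median 4.8) in FLX mice, a difference of -0.82 ± 0.23 (limma adjusted p = 0.103).

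All 6 oligodendrocyte markers were higher with FLX in WT mice at an unadjusted p under 0.05 (median 1.21), and their summed level had a median of 1830 TPM in vehicle mice (642 to 10381), beside that of 5444 TPM in FLX mice. The WT vehicle group held 2 striatal-rich libraries and the WT FLX group none. When they were left out, 10 subunit genes were called higher with FLX (among them Atp5b, Atp5g3, Atp5mpl, Cox7b and Ndufs1), and calls over all genes also went from 79 of 23557 to 1262 of 23015. Without WT vehicle replicate 1 alone 5 were called, without WT vehicle replicate 7 there were 2, and without WT FLX replicate 8 there was 1. Levels of several members moved with the striatal markers. In the 12 striatal-rich libraries Sdha was 258 to 328 TPM (median 281) and in the other 36 it was 293 to 439 TPM (median 343). Cyc1 had medians of 198 and 236 TPM, Ndufa8 156 and 184 TPM, and Ndufc2 174 and 211 TPM in the same 2 sets. Cox6a1 and Ndufa1 went the other way, with medians of 794 and 625 TPM and of 234 and 163 TPM. No member had ranges apart between these sets. These 6 genes were picked after their values had been seen. Of the genes called between genotypes in FLX mice, Ndufb8 had medians of 229.0 and 269.3 TPM in the same 2 sets. Uqcrc1 had medians of 121.5 and 138.6 TPM, and Ndufs1 of 149.3 and 146.8 TPM. The Brd1+/- FLX group held 2 striatal-rich libraries and the WT FLX group none. The part of striatal content in these calls was not tested beyond the marker scores and the fit without such libraries.

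The other drug comparisons showed no call. With IMN against vehicle in WT mice 0 of 83 passed, as did 0% of all genes, and 8 were higher at an unadjusted p under 0.05 beside 1.95% of all genes. The median was 0.08 beside -0.00 over all genes, and Atp5mpl was the leading gene at 0.36 ± 0.09 (limma adjusted p = 0.722). WT vehicle was the group with its lowest median, 222 TPM beside 278 to 300 TPM in the other 5, and these libraries enter this difference, the FLX difference and the genotype difference in vehicle mice alike. In Brd1+/- mice none of 83 passed with IMN, where 0.776% of all genes did, and none had an unadjusted p under 0.05, beside 9.3% of all genes. With FLX in Brd1+/- mice none passed, where 0.731% of all genes did, and 1, Ndufs1 (-0.18 ± 0.07), was lower at an unadjusted p under 0.05, beside 5.66%. The medians over the 83 genes were -0.00 and -0.01, beside -0.03 and -0.04 over all genes. Ndufb6 (0.18 ± 0.09) and Ndufb2 (0.13 ± 0.11) lay highest with FLX. Between FLX and IMN none of 83 passed in either genotype, as did 0% of all genes. In WT mice 8 were higher and 1 lower at an unadjusted p under 0.05, beside 3.58% and 1.2% of all genes, and with median-ratio scaling 0 were higher and 1 was lower. In Brd1+/- mice 1, Ndufb8 (-0.20), was lower at that p, beside 1.71%. In WT mice complex III lay above 0 with 9 of 9 genes (median 0.14) and with median-ratio scaling the median over all 83 genes was 0.00. In these and the other pairwise comparisons without a gene named as such, no member had ranges apart, beside 0.0126% to 0.505% of all genes.

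Whether the genotype difference under FLX departs from that under vehicle was tested as an interaction over the 4 groups. It was below 0 and passed for 2 of 84 genes, Ndufs1 (-0.38 ± 0.09, 95% interval -0.56 to -0.20, limma adjusted p = 0.0235) and Ndufb8 (-0.45 ± 0.12, 95% interval -0.70 to -0.20, limma adjusted p = 0.0477), where 1.53% of all genes were called below 0. In vehicle mice Ndufs1 ran from 131 to 163 TPM (median 139.3) in WT and from 137 to 182 TPM (median 152) in Brd1+/- mice, so that the 2 genotypes stood in the opposite order under FLX. Ndufb8 ran from 199 to 295 TPM (median 242) in WT and from 213 to 289 TPM (median 237) in Brd1+/- vehicle mice, with nearly the same range. Ndufs1 passed in all 32 fits that left out 1 library, and Ndufb8 in 9 of them. With median-ratio scaling, with the marker scores as covariates and without the striatal-rich libraries neither gene passed. At an unadjusted p under 0.05, 21 of the 84 lay below 0, beside 11.7% of all genes, and the median was -0.15 beside -0.10 over all genes. That count depended on the scaling, since with median-ratio scaling 5 lay below 0 at that p (5.95%, under the 9.06% of all genes) and 2 above it, and with the marker scores 9 lay below it (10.7%, beside 8.29%). The 6 oligodendrocyte markers all lay below 0 in the same interaction (median -2.07, 6 of 6 at that p), and their part in it was not tested beyond the covariates. With IMN in place of FLX no interaction passed (0 of 84, where 0.536% of all genes did), 3 lay below 0 at an unadjusted p under 0.05 beside 6.53% of all genes, and the median was -0.07 beside -0.03.

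The low forms of complex IV gave the widest differences in most comparisons, with errors about as wide. Cox7a1 differed by -2.05 ± 1.198 between genotypes in FLX mice, by 0.87 ± 1.00 with FLX and -0.79 ± 1.23 with IMN in WT mice, and by -1.32 ± 1.17 with FLX and -2.02 ± 1.18 with IMN in Brd1+/- mice, none past the test. Between FLX and IMN it differed by 1.66 ± 1.26 in WT and 0.70 ± 1.35 in Brd1+/- mice, and its interactions were -2.20 ± 1.60 with FLX and -1.23 ± 1.76 with IMN. Cox4i2 differed by 0.42 ± 0.89 between genotypes in FLX mice, by 0.68 ± 0.93 with IMN in WT mice and by -0.88 ± 0.79 with IMN in Brd1+/- mice. Cox6b2 differed by -0.53 ± 0.66 between genotypes in FLX mice and by 0.38 ± 0.66 with FLX in WT mice and -0.73 ± 0.58 in Brd1+/- mice. For Cox6a2 the interaction with FLX was 0.68 ± 0.30 (limma adjusted p = 0.246). Among abundant genes Ndufs4, an accessory subunit needed for a stable complex I, differed by 0.19 ± 0.17 with IMN and by -0.33 ± 0.17 between FLX and IMN in Brd1+/- mice, and Ndufb2 by 0.20 ± 0.12 with IMN in Brd1+/- mice.

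Genes that work with the subunits were listed for comparison and tested in the same fits. Between genotypes in FLX mice the 13 genes of the TCA cycle, which feeds NADH and succinate into the chain, all lay below 0, with 0 called and 8 lower at an unadjusted p under 0.05, where 1.38% of all genes were called lower and 11.3% were lower at that p. Their median was -0.19, beside -0.06 over all genes, and Ogdh, of the 2-oxoglutarate dehydrogenase complex, had the largest difference at -0.28 ± 0.07 (limma adjusted p = 0.0534). Of 47 assembly factors 0 were called and 13 were lower at that p (median -0.08), against the same 11.3% of all genes. The 13 subunits encoded in mitochondrial DNA went the other way, with 12 of 13 above 0, a median of 0.16, 0 called and 0 at that p. Their summed level was 111511 TPM ± 12358 in WT and 123471 ± 22348 in Brd1+/- FLX mice and overlapped widely. The highest sum, 167523 TPM, was that of the striatal-rich Brd1+/- FLX replicate 2. The other striatal-rich library of that group, replicate 5, had 121285 TPM, and the WT FLX group held no striatal-rich library. The part of punch composition in this difference was not tested. The 83 cytosolic ribosomal protein genes tested, taken as other short and abundant mRNAs, had a median of -0.04 with 1 lower and 1 higher at that p. Of 14 regulators of respiratory genes 0 were called, with 1 higher and 1 lower at that p, and Gabpa, a subunit of the ETS-family factor NRF-2, lay highest at 0.31 ± 0.11 (limma adjusted p = 0.148). Ppargc1a, the coactivator PGC-1alpha, was at -0.18 ± 0.14 and Nrf1 at -0.12 ± 0.11. Of 6 genes tested for mobile carriers and other entry points 0 were called and 0 passed at that p. In WT mice FLX against vehicle put 13 of 13 TCA cycle genes above 0 (median 0.22) and 8 of 13 mitochondrially encoded subunits below it (median -0.03), again with the WT FLX libraries in common. In the interaction, Ogdh (-0.37 ± 0.10, limma adjusted p = 0.0396) and the assembly factors Atpaf2 (-0.71 ± 0.17, limma adjusted p = 0.0238) and Ndufaf5 (-0.49 ± 0.13, limma adjusted p = 0.0493) passed beside Ndufs1 and Ndufb8, where 1.53% of all genes were called below 0. No alternatives were run for Ogdh, Atpaf2 and Ndufaf5. Calls over all genes in this interaction went from 455 to 25 without the striatal-rich libraries and to 192 with the marker scores as covariates.

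The promoters of the subunit genes were searched for the motifs of 3 factors known to act on respiratory genes, as a description without a test. The 250 bases before the annotated start were read from RefSeq (GRCm38.p6) for 67 of the 86 genes, in 72 windows, since some genes have 2 starts. The NRF1 motif, GCGCA and GCGC with any 1 base between them, bound by nuclear respiratory factor 1, stood on either strand in 14 of the 72 windows (19.4%), where 3.74% of the 32851 windows of all genes held it. The ETS motif CCGGAAG, as bound by NRF-2, stood in 12 (16.7%, beside 6.91%), and the YY1 motif AANATGGCG in 3 (4.17%, beside 1.12%). Any of the 3 stood in 25 windows (34.7%, beside 10.9%). The windows shown are 2 that hold such letters and those of the called genes Ndufb8 and Uqcrc1, which hold none of them; Ndufs1 had no window in the table. Capitals mark the matches, and each line runs 5′ to 3′ toward the start.
Sdha: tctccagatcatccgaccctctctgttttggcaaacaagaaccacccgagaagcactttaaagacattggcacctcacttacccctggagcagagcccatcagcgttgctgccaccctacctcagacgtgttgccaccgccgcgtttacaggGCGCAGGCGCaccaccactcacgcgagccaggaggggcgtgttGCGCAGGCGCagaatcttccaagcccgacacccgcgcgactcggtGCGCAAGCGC
Cox6a1: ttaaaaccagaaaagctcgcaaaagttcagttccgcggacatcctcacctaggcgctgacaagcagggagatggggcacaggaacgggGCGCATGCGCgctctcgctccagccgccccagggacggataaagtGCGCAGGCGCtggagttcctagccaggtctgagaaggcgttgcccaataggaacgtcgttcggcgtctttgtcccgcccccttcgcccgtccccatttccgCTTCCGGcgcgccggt
Ndufb8: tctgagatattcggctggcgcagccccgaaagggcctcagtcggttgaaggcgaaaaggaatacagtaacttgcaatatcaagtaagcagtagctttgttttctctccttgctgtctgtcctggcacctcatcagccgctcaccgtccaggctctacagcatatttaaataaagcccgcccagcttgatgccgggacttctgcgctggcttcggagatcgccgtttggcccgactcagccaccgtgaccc
Uqcrc1: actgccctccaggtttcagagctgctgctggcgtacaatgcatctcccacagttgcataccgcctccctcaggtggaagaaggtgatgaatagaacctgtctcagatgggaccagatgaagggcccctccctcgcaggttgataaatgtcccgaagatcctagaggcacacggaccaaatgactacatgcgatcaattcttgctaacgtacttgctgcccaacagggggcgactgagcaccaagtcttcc
The Sdha window lies at chr13:74350241-74350490 and holds the NRF1 letters in 3 places. The Cox6a1 window lies at chr5:115348959-115349208 and holds them in 2 places, with the ETS letters on the reverse strand near the start. Those of Ndufb8 and Uqcrc1 lie at chr19:44555443-44555692 and chr9:108936398-108936647. All but that of Uqcrc1 are on the minus strand. A match is a description of letters and not a measured binding site, and none of the libraries measured binding.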

How the data were processed

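RNA from 48 amygdala punches was sequenced from TruSeq libraries, and the authors deposited 1 table of TPM values per gene (reads trimmed with Trimmomatic, aligned with HISAT2 2.1.0 to GRCm38 and quantified with StringTie 1.3.4, per the submitters' processing notes). The strand setting was not given in the sources used here. TPM holds no read counts, so depth is unknown and no counting interval was computed. Column sums were 999524 to 999772. Levels were compared as log2(TPM + 0.1) with limma 3.58.1 (R 4.3.3, empirical Bayes with a mean trend), after a filter of at least 0.1 TPM in at least 8 libraries. The 9 pairwise comparisons used 16 libraries each and the 2 interactions 32, and p-values were adjusted by Benjamini-Hochberg over all genes tested (threshold 0.05). Fold changes on this scale understate those of low genes. The labels number the libraries of a group as replicates, so p-values measure the spread between these samples. The authors tested counts with edgeR, which were not used here. Scripts were tested on simulated data. Members and lists were chosen with earlier results of these data known. Genes were named by rule as the 2 most abundant of each complex, up to 4 called a direction, otherwise the 2 largest differences a direction (mean of at least 1 TPM), the isoform pairs, genes below the filter and Brd1; any other gene was chosen after its values were seen. Other pseudocounts, filters, scalings, fits and left-out libraries were tried as alternatives. The series' design text names other regions than the sample labels, which were followed. The result of 1 subunit gene is not reported by name here.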

Additional observations from a re-analysis of the deposited data

Results flagged for a closer look

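Among 174 groups of 8 values checked, 18 held a library far from the other 7, and chance flags about 1 in 20 groups. Brd1+/- IMN replicate 5 stood above its group in the summed level of complex I (6510 TPM, others 5480 to 5830) and complex V (6100 TPM, others 4850 to 5430), in Atp5b (1350 TPM, others 1030 to 1170) and in Sdhb (210 TPM, others 168 to 187). Cox4i1 was low in WT FLX replicate 5 (598 TPM, others 765 to 908), and Cox7a2 was low in WT vehicle replicate 4 (235 TPM, others 261 to 282).

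The low forms of complex IV gave the other 12. Cox8b stood out at 31.5 TPM in WT vehicle replicate 1, 12.1 TPM in Brd1+/- vehicle replicate 3, 14.9 TPM in WT FLX replicate 2, 32.3 TPM in Brd1+/- FLX replicate 8 and 0.461 TPM in WT IMN replicate 3. Cox6b2 stood out at 53.9 TPM in WT vehicle replicate 1, 39.1 TPM in WT FLX replicate 2 and 42.6 TPM in Brd1+/- FLX replicate 8. Cox7a1 stood out at 15 TPM in WT vehicle replicate 1 and 9.5 TPM in Brd1+/- IMN replicate 4. Cox7b2 was listed above 0 in 1 library of its group at 1.09 TPM in WT IMN replicate 1 and at 0.962 TPM in Brd1+/- IMN replicate 3.

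The genotype difference under FLX departed from that under vehicle for Ndufs1 (interaction -0.38 on the log2 scale, limma adjusted p = 0.0235) and Ndufb8 (-0.45, limma adjusted p = 0.0477).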

How the results depend on the processing

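The counts of subunit genes called depended on the settings in 4 of the 11 comparisons, and in the other 7 they were 0 under every alternative. Between genotypes in FLX mice the count of 3 became 1 (Ndufb8) with no filter, quantile normalization, eBayes without a trend, one fit of all 48 libraries or without the striatal-rich libraries. It became 0 with median-ratio scaling, the code range as a covariate, the 3 marker scores or without the choroid-rich libraries, and was 0 to 5 when 1 library was left out. For the genotype by FLX interaction the count of 2 became 1 with a pseudocount of 0.01, no filter, a filter of 1 TPM, quantile normalization, no trend, the code term, protein-coding genes alone or without the choroid-rich libraries. It became 0 with median-ratio scaling, the marker scores or without the striatal-rich libraries, and was 1 to 3 when 1 library was left out, with 1 in 21 of 32 such fits. For FLX against vehicle in WT mice the count of 0 became 1 (Atp5g3) with a filter of 1 TPM and 10 without the striatal-rich libraries, and was 0 to 5 when 1 library was left out. For genotype in vehicle mice it became 1 (Atp5mpl) with one fit of all 48 libraries and was 0 to 1 when 1 library was left out. The causes were not tested. The marker scores, the libraries left out for their markers and the protein-coding test were chosen after seeing the data. Quantile normalization moved the median of all genes in the FLX interaction by 0.117, and none of the 3 called genes reversed its direction under any alternative run.

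Replicate numbers did not pair the samples. At most 5 of 8 same-numbered pairs correlated over 0.1 in any pairwise comparison, and at most 2 of 8 samples correlated best with their own number. With the replicate number as a block the genotype comparison in FLX mice gave 0 calls in place of 3, and the FLX interaction kept a count of 2.

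TPM holds no depth, so the precision of low genes such as Cox7b2 is unknown.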
